A study of Mus musculus with 18 samples.

Results

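The earliest time point of an inducible Prmt1 deletion in mouse small intestinal crypts was examined, 2 days after the first tamoxifen injection. The comparison holds 6 of the 18 libraries of the series, chosen by their labels: 3 KO and 3 WT libraries labelled day 2, with 1 mouse per library. KO mice were PRMT1 fl/fl;Vil-CreERT2, and WT mice were PRMT1 fl/fl littermates that carry no Cre. All 6 mice were 8 to 12 weeks old, had LoxP sites on both Prmt1 alleles and had received 2 injections of 2 mg tamoxifen before crypts were released with EDTA. CreERT2 is driven by the villin promoter, which is active in the intestinal epithelium and not in the stromal, muscle and immune cells that a crypt preparation can also hold. KO and WT therefore differ both in Prmt1 and in carrying an active CreERT2 transgene with any stretch of genome inherited beside it, and the effects of these differences cannot be told apart in this design. The 6 KO and 6 WT libraries of days 7 and 14, from other mice of the same genotypes, were used to see which day 2 differences were present later.

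PRMT1 is the main enzyme that places asymmetric dimethyl groups on arginines of histones and of many RNA-binding and signalling proteins. Crypts hold the stem cells, the dividing progenitors and the Paneth cells of the epithelium, and their progenitors give rise to absorptive enterocytes and to secretory goblet, tuft and enteroendocrine cells (EECs). CreERT2 is a fusion of Cre recombinase with the hormone-binding part of the human estrogen receptor, which enters the nucleus and recombines LoxP sites only when tamoxifen is bound. Among the pathways described below, p53 is a transcription factor that is stabilised after DNA damage and other stresses and turns on genes of cell cycle arrest, DNA repair and cell death.

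Total counts of the 6 libraries, summed over genes, ranged from 14885483 to 31493484, and a read pair that overlapped more than 1 gene counts for each. The KO libraries were on average the shallower ones, with 14885483, 16873054 and 24181072 counts against 24557023, 20609314 and 31493484 in WT. Mitochondrial transcripts took 9.76%, 6.84% and 7.19% of the counts in the KO libraries and 10.1% to 10.6% in the WT libraries, so that every KO library was below every WT library. The part of this share in the results was not tested. Epithelial markers were abundant in each library. The brush border gene Vil1 ranged from 1169 to 2053 CPM (counts scaled by the effective size of each library), the stem cell gene Olfm4 from 1011 to 1571 CPM and the proliferation gene Mki67 from 528 to 657 CPM. Stromal genes varied between libraries within both groups: summed over the stromal and endothelial markers, the KO libraries had 32.1, 45.4 and 135 CPM and the WT libraries 117, 75.0 and 188 CPM. KO 1 and KO 2 lay below every WT library and KO 3 within the WT range. In bulk RNA, fewer cells of a type and less RNA per cell cannot be told apart.

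Few genes differed between KO and WT crypts at day 2. Of 55335 genes in the table, 21349 had enough counts to be tested, and 7 of them, 0.0328%, passed a threshold of 0.05 after Benjamini-Hochberg adjustment in the quasi-likelihood test of edgeR. The genes called by this threshold were Prmt1, which was lower in KO (1 gene, 0.00468%), and Gm13394, Esr1, Gm44215, Gm45063, Phlda3 and Acta1, which were higher (6 genes, 0.0281%). Without adjustment, 418 genes had a p under 0.05 with higher levels in KO (1.96% of those tested) and 292 with lower levels (1.37%), 710 in all (3.33%). All 3 KO libraries lay above all 3 WT libraries for 918 genes (4.3%) and below them for 825 genes (3.86%). The median log2 fold change over all genes tested was -0.00. In the same test, 3690 genes (17.3%) were called at day 7 and 1690 genes (7.92%) at day 14. A p named as unadjusted below describes the rank of a gene among all those tested and is not a call.

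**Figure D1:**
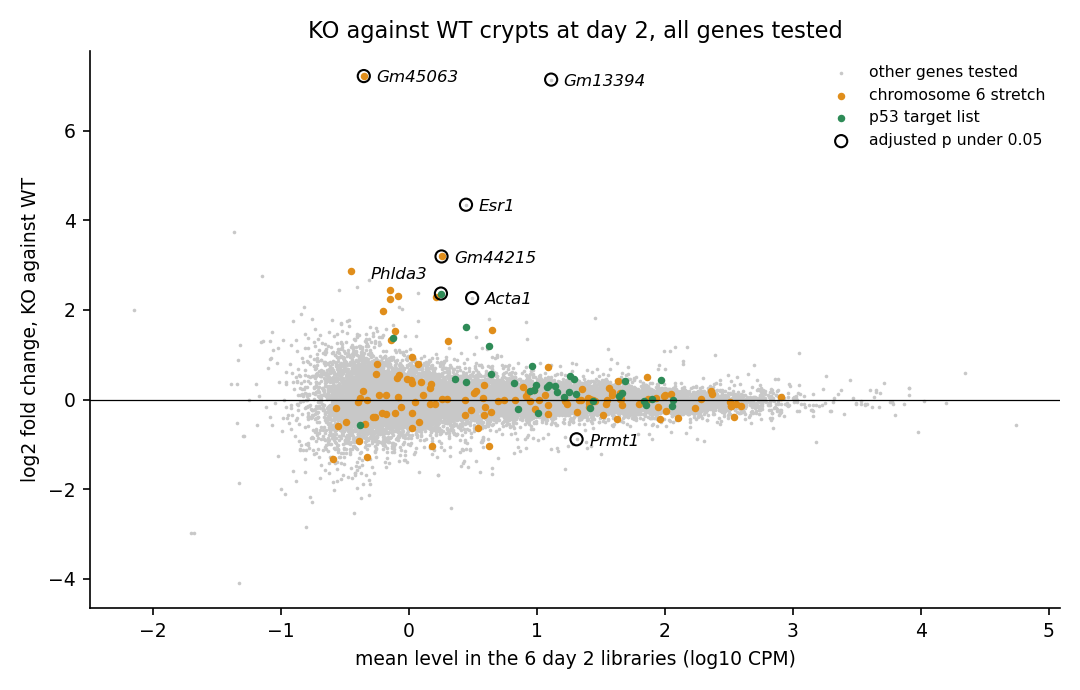
Log2 fold change of KO against WT crypts at day 2 (y axis) plotted against the mean level in the 6 libraries (x axis, log10 CPM) for each of the 21349 genes tested. Black circles mark the 7 genes with an adjusted p under 0.05, orange points the genes of a stretch of chromosome 6 and green points the p53 target list. Gm45063 and Gm13394 stand above a fitted log2 fold change of 7, which for Gm45063 depends on the prior count because each WT library has 0 counts, and Prmt1 is the circled gene below 0.

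Prmt1 (ENSMUSG00000109324.2, mm10 chr7:44975989-44986568, minus strand) was the targeted gene and was checked in every library. It had 15.8, 13.1 and 14.3 CPM in the KO libraries and 27.1, 26.5 and 26.1 CPM in the WT libraries. All KO libraries were below all WT libraries, and their mean was 54.1% of the WT mean. The log2 fold change was -0.89 (SE 0.14, 95% confidence interval -1.18 to -0.59, adjusted p = 0.0264, edgeR). With 3 libraries against 3, an exact two-sided permutation test of the CPM values cannot go below p = 0.1, which is the value it gave. The call was lost when the fit held only the 6 day 2 libraries (log2 fold change -0.89, adjusted p = 0.0939, edgeR) and in each fit that left out 1 library (adjusted p from 0.0816 to 0.183), whereas the fold change stayed between -0.95 and -0.82. Later, the log2 fold change of Prmt1 was -0.59 (day 7) and -0.72 (day 14), and the KO effect at day 2 did not pass the test of a difference from either (log2 difference 0.30, adjusted p = 0.468, and 0.17, adjusted p = 0.827, edgeR). Counts were summed over the whole gene, so that reads from exons outside the deleted part are included. Of the 7 other PRMT genes tested, which encode the rest of the arginine methyltransferase family, 0 had an unadjusted p under 0.05 and their median log2 fold change was 0.09. Prmt6, a nuclear family member, had 10.9, 10.1 and 9.79 CPM in KO and 7.59, 9.61 and 8.13 CPM in WT, without overlap (log2 fold change 0.28, unadjusted p = 0.0759 in edgeR's test).

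Esr1 (ENSMUSG00000019768.16, chr10:4611593-5005614, plus strand), the gene of the estrogen receptor alpha, was read in every KO library and hardly in WT. It had 4.66, 4.91 and 6.47 CPM in KO, from 70, 86 and 150 counts, and 0.164, 0.311 and 0.297 CPM in WT, from 4, 7 and 8 counts. The lowest KO library was far above the highest WT library (log2 fold change 4.35, SE 0.32, adjusted p = 2.18e-07, edgeR). In edgeR's test the difference was 3.85 at day 7 (adjusted p = 2.91e-07) and 2.65 at day 14 (adjusted p = 2.11e-05). The count table does not tell reads of mouse Esr1 from reads of the human receptor sequence in CreERT2. Of 20 tested genes that work with or respond to the estrogen receptor, 0 had an unadjusted p under 0.05. Among them, 1 (Nrip1) was fully separated with lower levels (3.86% of all genes), and the median log2 fold change was 0.03.

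Gm13394 (ENSMUSG00000083773.4, chr2:28933610-28934609, minus strand) is a processed pseudogene of Gapdh, an intronless copy of the mRNA of the glycolytic enzyme. It had 25.2, 27.0 and 25.1 CPM in the KO libraries and 0.123, 0.222 and 0.186 CPM in the WT libraries. The 3 KO libraries were close to each other, and the WT libraries held only 3 to 5 counts each against 378 to 581 in KO. The log2 fold change was 7.14 (SE 0.31, adjusted p = 4.88e-11, edgeR), with 8.32 at day 7 (adjusted p = 1.34e-11) and 6.82 at day 14 (adjusted p = 1.08e-10).

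The sequences show how closely the pseudogene and its parent are related. The 1000 bases of Gm13394 were compared with the Gapdh-201 transcript of GENCODE M21 and differed at 1 base, an identity of 99.9%. Counted from the first base of the start codon, this is A346C, with the Gapdh base first, and it lies at chr2:28934264 in the pseudogene. Bases 326 to 366 are shown on the sense strand with the differing base in capitals.
Gapdh: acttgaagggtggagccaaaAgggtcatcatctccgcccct
Gm13394: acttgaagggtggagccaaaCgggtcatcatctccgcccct
Of the 901 positions at which a 100-base read can start within these 1000 bases, 100 give a read that covers this base. Taken alone, any other read from these bases fits both genes equally. The reads came in pairs, so that a mate can still place such a read, and the share placed in this way was not measured. Because reads with several alignments were not counted, the counts of both genes rest on part of their reads.

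Gapdh itself (ENSMUSG00000057666.18, chr6:125161715-125166467, minus strand) had 300.3, 266 and 341 CPM in KO and 374, 341 and 479 CPM in WT at day 2. The groups met at 341 CPM and the difference did not pass the test (log2 fold change -0.40, SE 0.26, unadjusted p = 0.15, edgeR). Within each library, the CPM of Gm13394 were 7.34% to 10.2% of those of Gapdh in the day 2 KO libraries and 0.0328% to 0.0652% in WT. Over all 3 days this share ranged from 7.29% to 10.2% in the 9 KO libraries and from 0.0317% to 0.128% in the 9 WT libraries, so that no library of either genotype came near the other.

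**Figure D2:**
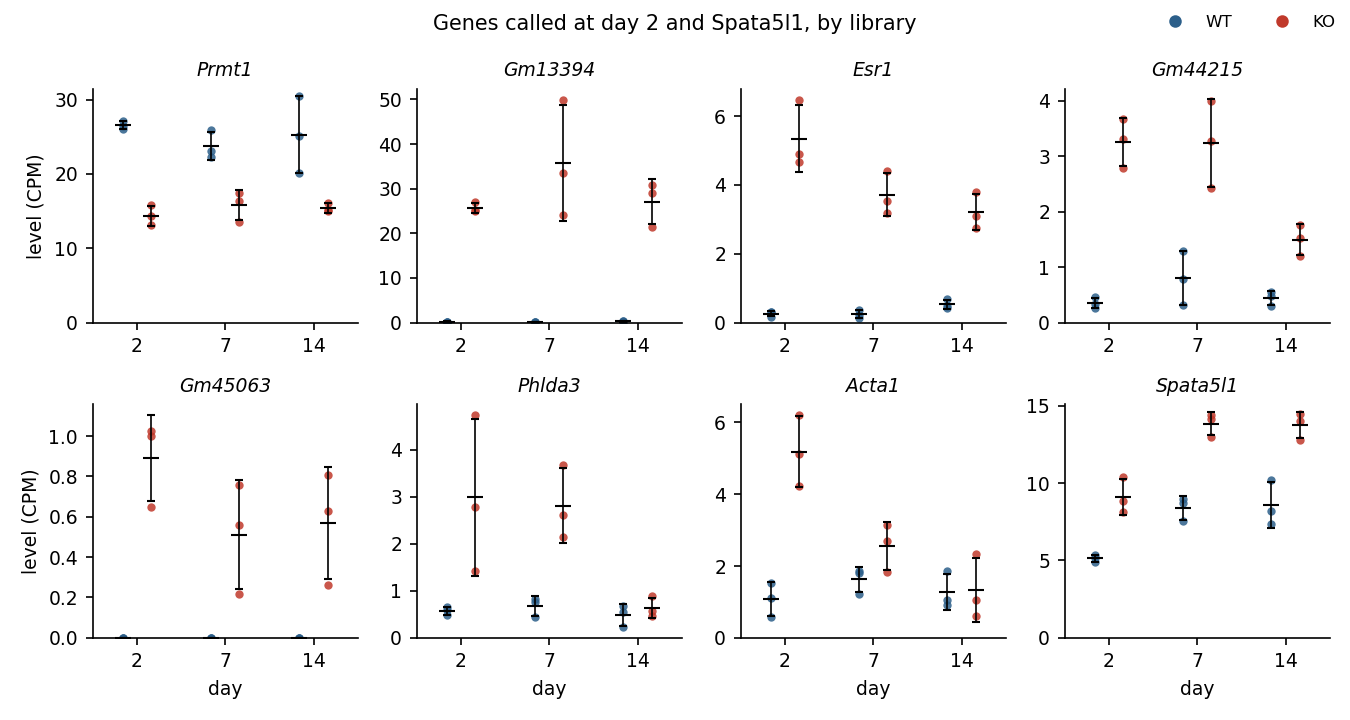
Level (y axis, CPM) of the 7 genes called at day 2 and of Spata5l1, the gene next in rank, in each library at days 2, 7 and 14 (x axis). Blue points are WT and red points KO libraries, and black marks give the mean with the SD of 3 libraries. Gm13394, Esr1, Gm44215 and Gm45063 were separated between genotypes on each day, whereas Acta1 and Phlda3 had closed to a log2 fold change of 0.02 and 0.32 by day 14.

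Several of the highest ranked genes lay close together on chromosome 6. In windows of 2 Mb, the one that holds Gm44215 had 11 genes with an unadjusted p under 0.05 among 41 tested, the most of all 1194 windows, with 10 of them higher in KO. The next window held 9 such genes among 120 tested. Over a longer stretch of neighbouring windows (chr6:124396816-133114273, from Pex5 to Gm7039), whose limits were drawn after the values were seen, 22 of 127 genes tested (17.3%) had an unadjusted p under 0.05, against 3.24% of the genes elsewhere. Of these 22 genes, 17 were higher in KO (77.3%, against 58.3% elsewhere), and their median absolute log2 fold change was 1.33, against 0.59 elsewhere. They are not all separate observations, because Gm43634 shares 664 of its 675 exonic bases with Cracr2a on the same strand and both are among the 22. Both genes called here, Gm44215 and Gm45063, are annotated without a protein product. The stretch includes the natural killer gene complex, a cluster of genes of lectin-like receptors that are known from natural killer cells.

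Gm44215 (ENSMUSG00000107495.1, chr6:128691073-128693783) is a transcript of unsettled annotation. It had 2.80, 3.31 and 3.67 CPM in KO and 0.451, 0.267 and 0.334 CPM in WT, without overlap (log2 fold change 3.19, SE 0.37, adjusted p = 0.000408, edgeR). Its difference was 1.93 at day 7 and 1.69 at day 14, both called. Gm45063 (ENSMUSG00000108002.1, chr6:132462502-132462973), a processed pseudogene, had 15, 18 and 15 counts in KO and 0 counts in each WT library. Against 3 counts per WT library it was at least 7.26-fold higher (adjusted p = 0.0398, edgeR). Over the later days it had 5 to 17 counts in each KO library and again 0 in each WT library. Its call was lost in all 6 fits without 1 library (adjusted p from 0.0766 to 0.251).

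Around Gm44215, the pseudogene Clec2j had 2.13, 3.20 and 2.80 CPM in KO and 0.574, 0.845 and 0.260 CPM in WT (log2 fold change 2.29, adjusted p = 0.176, edgeR). Klrb1, a gene of the lectin-like receptor family, had 0.998, 1.26 and 1.38 CPM in KO and 0.205, 0.311 and 0.149 CPM in WT (2.45, adjusted p = 0.172, edgeR). Klri1, a receptor gene of the same family further along, had 1.40, 1.26 and 0.906 CPM in KO and 0.328, 0.133 and 0.260 CPM in WT (2.25, adjusted p = 0.0842, edgeR). These genes separated the genotypes fully but did not pass the adjusted threshold, and all had below 4 CPM. Klri1 was called at day 7 (2.23) and day 14 (3.63), while Klrb1 was called at day 7 (1.79) and was at -0.46, not called, at day 14. The T cell and intraepithelial lymphocyte markers, of which 18 were tested, had 0 genes with an unadjusted p under 0.05 at day 2 and a median log2 fold change of 0.18. Their summed levels were 269, 319.7 and 303 CPM in KO and 222, 258 and 305 CPM in WT.

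Further genes of the stretch are not receptor genes. Gm44958, a processed pseudogene that overlaps exons of Magohb, on the same strand, so that reads there were counted for both, had 2.20, 4.22 and 2.33 CPM in KO and 1.44, 1.11 and 0.966 CPM in WT. Nop2, which encodes an rRNA methyltransferase, had 40.01, 54.7 and 54.3 CPM in KO and 36.1, 37.0 and 38.9 CPM in WT, so that KO 1 was just above the highest WT library. Its log2 fold change was 0.41 at day 2 (unadjusted p = 0.00589), 0.87 at day 7 and 0.54 at day 14, the later 2 called by edgeR's test. BC064078 was separated in the same direction at day 2 with 7.06, 5.93 and 6.90 CPM against 1.599, 1.51 and 3.64 CPM, but was at -0.43 and -0.91 at days 7 and 14. Styk1, which encodes a kinase-like membrane protein, was lower in KO with 77.7, 78.2 and 76.9 CPM against 105, 103 and 108 CPM (log2 fold change -0.44, unadjusted p = 0.00163, edgeR). The 15 genes of the stretch that were separated, had an unadjusted p under 0.05 and were higher at day 2 could be compared with the later days, which share no library with day 2. At day 7, 14 of the 15 had the same sign (93.3%, against 51.6% of all genes) and 7 were called (46.7%, against 7.11%), and at day 14, 13 had the same sign (86.7%, against 50.2%) and 5 were called (33.3%, against 3.23%). Whether this stretch or Gm13394 was inherited together with the transgene was not tested.

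**Figure D3:**
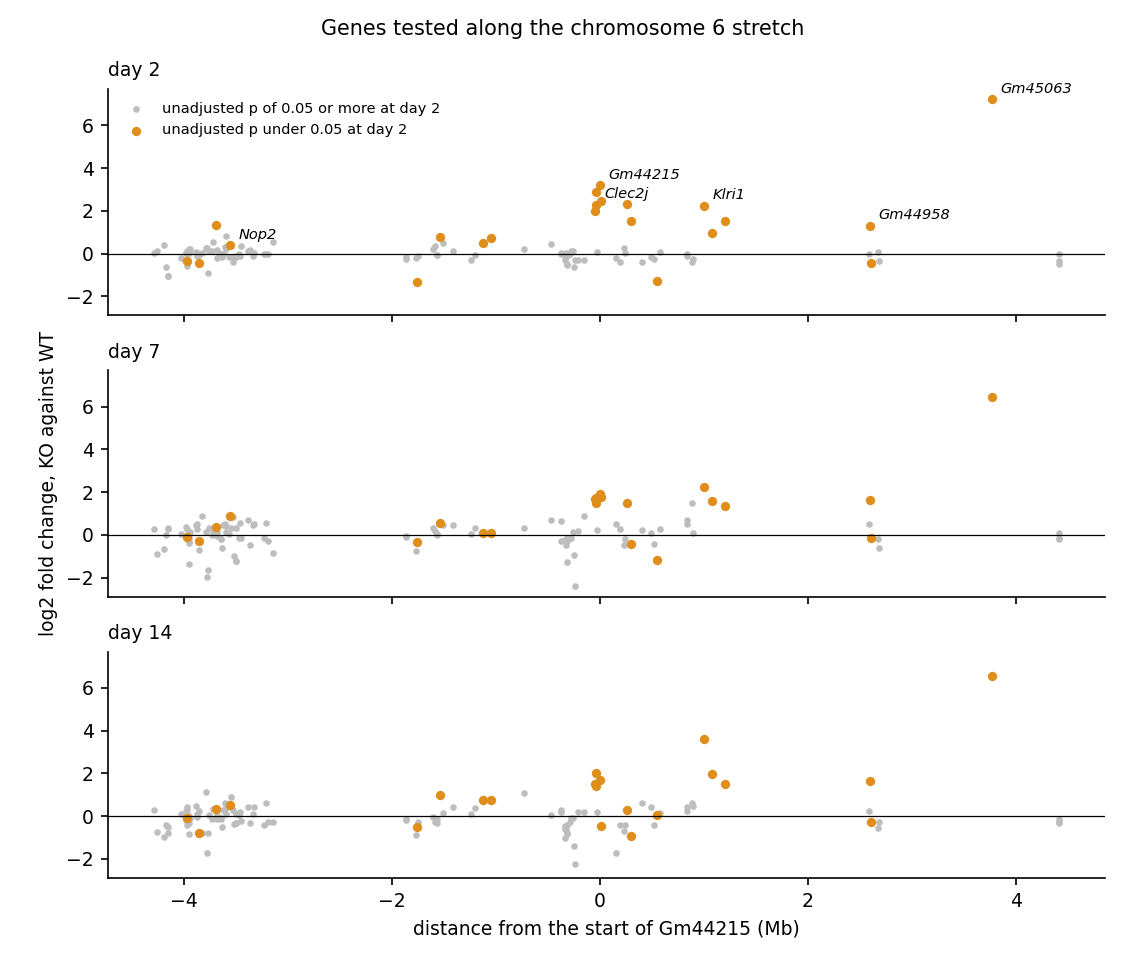
Log2 fold change of KO against WT (y axis) of the 127 genes tested along the chromosome 6 stretch at days 2, 7 and 14, by distance from the start of Gm44215 (x axis, Mb). Orange points are the 22 genes with an unadjusted p under 0.05 at day 2. The group of orange points around 0 Mb lies above 0 at day 2 and for the most part at day 7, and the topmost point is Gm45063, whose fitted value depends on the prior count because WT has 0 counts on each day.

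Phlda3 (ENSMUSG00000041801.5, chr1:135766119-135769136), a p53 target that restrains Akt signalling, was higher in KO at day 2. It had 2.80, 1.43 and 4.75 CPM in KO and 0.656, 0.489 and 0.594 CPM in WT. The KO libraries differed among themselves more than 3-fold, yet each was above every WT library (log2 fold change 2.37, SE 0.41, adjusted p = 0.0401, edgeR). The difference was 2.07 at day 7 (adjusted p = 0.0015) and 0.32 at day 14 (adjusted p = 0.779, edgeR). The call was lost in 5 of the 6 fits without 1 library, and without KO 3 the log2 fold change was 1.84 (adjusted p = 0.338, edgeR).

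Among the p53 target genes, 35 of 36 were tested. Phlda3 was called, 9 genes including it had an unadjusted p under 0.05 with higher levels in KO (25.7% of the list, against 1.96% of all genes tested), and 0 had one with lower levels. Full separation was seen for 10 genes with higher levels (4.3% of all genes) and 1 gene, Rrm2b, with lower levels (3.86% of all genes). The median log2 fold change of the list was 0.21, with 26 of 35 values above 0, against a median of -0.00 over all genes. The median deviation of the list from the WT mean was 0.11, 0.27 and 0.42 in the KO libraries and -0.03, -0.12 and 0.07 in the WT libraries, on the log2 scale. KO 3 was the highest of the KO libraries for 8 of the 9 genes and KO 2 for the remaining one. Across all other settings, including those without KO 3, 6 to 11 list members had an unadjusted p under 0.05 with higher levels and 0 with lower levels. Of the members below, Mdm2, Plk2, Cdkn1a and Ccng1 were fixed genes. The remaining members were named by their values, as a called gene or the leading member of a list, or after their values were seen.

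Regulators of p53 signalling were among the 9 genes. Mdm2, the ubiquitin ligase that degrades p53, had 53.5, 59.8 and 52.9 CPM in KO and 43.5, 35.2 and 46.4 CPM in WT. All KO libraries were higher, by a log2 fold change of 0.41 (SE 0.12, unadjusted p = 0.00341, edgeR). Plk2, a polo-like kinase, had 4.59, 5.82 and 7.205 CPM in KO and 2.62, 1.91 and 3.12 CPM in WT. It was separated as well (1.20, SE 0.25, adjusted p = 0.23, edgeR) and was called at day 7 (1.83, adjusted p = 6.78e-05). Sesn2, a stress-induced inhibitor of growth signalling, had 9.45, 9.59 and 15.3 CPM in KO and 6.31, 5.56 and 8.65 CPM in WT (0.75, unadjusted p = 0.00218, edgeR).

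Of the death genes on the list, Bax and Aen were separated and the others named here overlapped between groups. Bax, a pore-forming protein of the mitochondrial death pathway, had 19.6, 22.1 and 25.8 CPM in KO and 15.5, 14.9 and 18.7 CPM in WT. The KO libraries began just above the highest WT library (log2 fold change 0.46, unadjusted p = 0.00343, edgeR). Aen, a nuclease of the apoptotic response, had 19.4, 22.02 and 22.8 CPM in KO and 13.3, 16.01 and 15.6 CPM in WT (0.52, unadjusted p = 0.00349, edgeR). Eda2r, a death receptor family member, had 4.13, 1.65 and 6.86 CPM in KO and 1.07, 1.38 and 1.71 CPM in WT, so that KO 2 was below the highest WT library. Its log2 fold change was 1.61 at day 2 (unadjusted p = 0.000616, edgeR) and 1.42 at day 7, where it was called. Gdf15, a secreted stress hormone, overlapped between groups with 0.865, 0.513 and 1.90 CPM against 0.123, 0.400 and 0.743 CPM. Further death genes of the list, namely Bbc3, Pmaip1, Fas, Apaf1, Perp, Tnfrsf10b and Pidd1, overlapped too, with log2 fold changes from -0.29 for Fas to 0.38 for Bbc3 and unadjusted p from 0.0842 for Pidd1 to 0.985 for Apaf1 in edgeR's test. Psrc1, a spindle protein gene, had 4.86, 4.68 and 6.34 CPM in KO and 3.20, 4.05 and 3.42 CPM in WT.

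The well known p53 targets Cdkn1a and Ccng1 did not separate the groups. Cdkn1a, the cell cycle inhibitor p21, had 45.5, 44.1 and 57.8 CPM in KO and 41.1, 29.9 and 61.1 CPM in WT. The groups overlapped (log2 fold change 0.16, 95% confidence interval -0.41 to 0.72, unadjusted p = 0.565, edgeR), and its difference at day 7 was 1.30 (adjusted p = 0.00323). The test of its KO effect at day 7 against day 2 did not pass (log2 difference 1.14, adjusted p = 0.103, edgeR). Ccng1, a cyclin of the p53 feedback loop, had 116, 81.9 and 124.5 CPM in KO and 83.9, 76.1 and 78.4 CPM in WT. KO 2 was within the WT range (0.44, unadjusted p = 0.0666, edgeR). At day 7 the list median was 0.34, with 11 of 35 members called higher (7.11% of all genes) and 2 called lower (10.2% of all genes), and at day 14 it was -0.00, with 0 called higher (3.23%) and 1 called lower (4.69%). Among 35 DNA repair genes, 0 had an unadjusted p under 0.05 (median -0.01). Of the 17 Bcl2 family genes tested, Bax had one and no other (median -0.02).

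**Figure D4:**
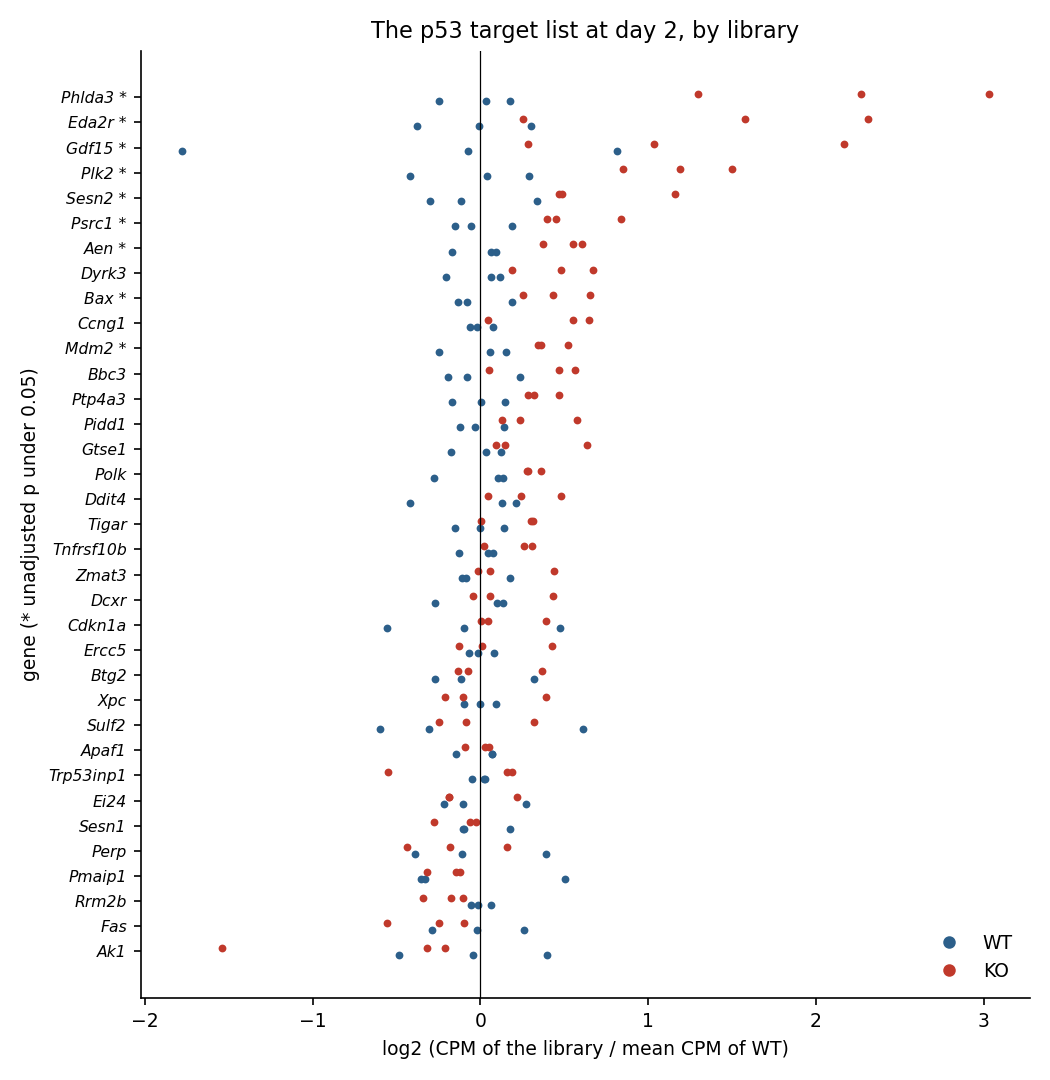
Level of each of the 35 p53 target genes tested (y axis) in each day 2 library, as the log2 ratio of its CPM to the mean CPM of the WT libraries (x axis). Blue points are WT and red points KO libraries, and an asterisk marks an unadjusted p under 0.05. The upper 9 marked genes have their KO points mostly right of all WT points, whereas the points of Cdkn1a overlap. Rrm2b, further down, has its KO points left of all WT points.

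The promoters of the list were searched for the binding motif of p53, because several of its members were higher in the same libraries. The windows ran from 250 bases before to 50 bases after the start site in RefSeq (GRCm38.p6), and 27 of the 35 tested members had one. The 10-base p53 element reads the same on both strands, so that 1 search covers both. It was present in 9 of the 27 members (33.3%), against 8.63% of the 12259 tested genes with a window and 8.36% of all 32851 windows. Because the list was chosen as p53 targets, this excess does not depend on the day 2 values and does not bear on them. Of the 9 members with an unadjusted p under 0.05, 3 held it (33.3%), the same share as among the 27. These 3 are shown with Ccng1 on the gene's strand with the element in capitals.
Mdm2 chr10:117710925-117710954 (minus strand): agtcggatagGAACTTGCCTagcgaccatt
Bax chr7:45467080-45467109 (minus strand): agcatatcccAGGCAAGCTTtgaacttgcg
Aen chr7:78895927-78895956 (plus strand): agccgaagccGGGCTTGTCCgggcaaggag
Ccng1 chr11:40755452-40755481 (minus strand): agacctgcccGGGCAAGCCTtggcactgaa
A pair of such elements with at most 13 bases between them was found in the window of 1 member, Cdkn1a.
Cdkn1a chr17:29090906-29090937 (plus strand): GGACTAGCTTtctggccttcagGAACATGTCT
A match describes the letters of the window and does not show binding. The member with this pair, Cdkn1a, was among those whose groups overlapped at day 2.

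Acta1 (ENSMUSG00000031972.5, chr8:123891769-123894751), the actin of skeletal muscle, had 5.13, 4.22 and 6.21 CPM in KO and 1.52, 0.578 and 1.11 CPM in WT. The groups were separated (log2 fold change 2.27, SE 0.39, adjusted p = 0.0401, edgeR), and its call was lost in all 6 fits without 1 library (adjusted p from 0.0824 to 0.332). It was at 0.66 at day 7 and 0.02 at day 14, neither called, and the test of the difference between days 14 and 2 gave -2.25 (adjusted p = 0.064, edgeR). Of 14 markers of striated muscle, 4 had enough counts to be tested, and the remaining 10 included Ckm and the fast myosins Myh1, Myh2 and Myh4. Mylpf, a light chain of fast myosin, was lower in KO with 1.13, 1.43 and 1.42 CPM against 1.56, 1.96 and 2.53 CPM (-0.59, unadjusted p = 0.0261, edgeR). Of 8 smooth muscle markers tested, 0 had an unadjusted p under 0.05 and the median log2 fold change was -0.05.

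Further genes with higher levels and full separation followed in rank. Spata5l1, which encodes an AAA ATPase needed for ribosome maturation, had 8.85, 10.4 and 8.11 CPM in KO and 5.33, 5.16 and 4.90 CPM in WT. It fell just outside the threshold at day 2 (log2 fold change 0.83, SE 0.15, adjusted p = 0.0609, edgeR) and was called at day 7 (0.72) and day 14 (0.69) with nearly the same size. Outside the chromosome 6 stretch and the p53 list, the others among the first 10 were Gask1b, Kazn and Thbs1. Gask1b, which encodes a Golgi-associated kinase, had 1.33, 1.65 and 2.46 CPM in KO and 0.492, 0.489 and 0.631 CPM in WT (1.76, adjusted p = 0.252, edgeR). Kazn, a gene of desmosome assembly, had 11.5, 16.7 and 13.8 CPM against 8.94, 9.70 and 9.29 CPM (0.59). Thbs1, the secreted matrix protein thrombospondin 1, had 14.6, 11.2 and 15.3 CPM in KO and 5.99, 7.25 and 9.95 CPM in WT (0.82). Thbs1 had the opposite sign at day 7 (-0.75, adjusted p = 0.0144), and its KO effects at days 7 and 2 differed by -1.57 (adjusted p = 0.00396, edgeR).

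The first genes with lower levels and full separation had no adjusted p under 0.05 other than Prmt1. The transcript 1810044D09Rik had 0.333, 0.228 and 0.216 CPM in KO and 0.820, 0.845 and 0.743 CPM in WT (log2 fold change -1.64, adjusted p = 0.46, edgeR), and was called at day 7 (-1.34, adjusted p = 0.0135). Pgam2, the muscle form of a glycolytic mutase, had 0.865, 1.37 and 1.25 CPM in KO and 2.21, 2.54 and 2.56 CPM in WT. Its log2 fold change was -1.05 at day 2 and -1.06 at day 7, the latter called. Pcmtd2, a relative of protein repair methyltransferases, had 29.9, 25.2 and 28.2 CPM in KO and 40.5, 37.1 and 38.1 CPM in WT (-0.48, and -0.45 at day 7 with adjusted p = 0.0214, edgeR). Tnfaip8l3, a lipid transfer protein, had 9.12, 8.96 and 9.28 CPM against 12.998, 11.9 and 13.7 CPM (-0.50, and -0.44 at day 7 with adjusted p = 0.043, edgeR). Gm18329 was at -1.50 at day 2 and called at -2.84 at day 7 and -1.70 at day 14. The other genes of this rank, 5033403H07Rik, Gm12185, Gm7741 and Cacnb2, had fewer than 4 CPM in each library and were not called on a later day.

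Markers of the EEC lineage, the cell type with which the study is concerned, had list medians near 0 at day 2. The 20 EEC transcription factors had a median log2 fold change of -0.01, against 0.70 at day 7 and 0.99 at day 14. The 24 EEC hormones and granule genes had -0.09, against 1.01 and 1.01. Of the 20 factors, 3 were fully separated with higher levels in KO (4.3% of all genes), Mnx1 among them. Neurod1 was the 1 factor separated with lower levels (3.86% of all genes). Neurog3, the factor that commits progenitors to the EEC fate, had 2.93, 2.85 and 4.10 CPM in KO and 2.38, 2.62 and 3.19 CPM in WT. The groups overlapped (0.28, 95% confidence interval -0.21 to 0.76), and because 273 of the 1674 exonic bases of Neurog3 are also exons of Fam241b on the other strand and strand was not used, these counts can include reads of Fam241b. Neurod1, the factor that acts after Neurog3, was lower in each KO library, with 2.93, 2.45 and 3.88 CPM against 4.14, 4.003 and 5.16 CPM (-0.51, unadjusted p = 0.0253, edgeR). Because 201 of its 2729 exonic bases are also exons of Cerkl on the same strand, its counts can include reads of Cerkl. At days 7 and 14 Neurod1 was called higher (1.20 and 1.29), and its KO effects differed from day 2 by 1.72 (adjusted p = 0.00272) and 1.80 (adjusted p = 0.00473, edgeR). Chga, a granule protein of EECs, had 59.0, 88.9 and 94.6 CPM in KO and 78.7, 62.7 and 98.2 CPM in WT (0.02, 95% confidence interval -0.35 to 0.39). Tph1, the enzyme of serotonin synthesis, had 16.6, 11.98 and 18.98 CPM in KO and 17.5, 14.5 and 21.02 CPM in WT, and its KO effects differed between days 7 and 2 by 2.00 (adjusted p = 0.00023, edgeR) and between days 14 and 2 by 2.34 (adjusted p = 0.000209, edgeR).

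All 11 goblet cell markers tested had a log2 fold change above 0 at day 2, with a median of 0.29, which was 0.17 without KO 3. Of these, 0 were called by edgeR's test, 2 had an unadjusted p under 0.05 (1.96% of all genes) and 5 were fully separated with higher levels in KO (4.3% of all genes), whereas the others overlapped between groups. Muc2, the main secreted mucin, had 3144, 3521 and 3082 CPM in KO and 2312, 2374 and 2511 CPM in WT (0.44, unadjusted p = 0.031, edgeR). Spink4, a secreted protease inhibitor, had 438, 427 and 431 CPM in KO and 281, 288 and 348 CPM in WT (0.50, unadjusted p = 0.0187, edgeR). Clca1, Tff3 and the transcription factor Spdef were separated in the same direction with log2 fold changes of 0.35, 0.29 and 0.31. The direction did not last for each gene, since Spink4 was called lower at day 7 (-0.93) and differed from day 2 by -1.42 (adjusted p = 0.00585, edgeR), while Muc2 was at 0.05.

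Paneth cell markers did not separate the groups at day 2, although all 13 tested had a log2 fold change above 0 (median 0.37, 0 with an unadjusted p under 0.05). Lyz1, the lysozyme of these cells, had 7618, 3948 and 5846 CPM in KO and 3109, 3725 and 6598 CPM in WT. KO 2 and KO 3 lay within the WT range and KO 1 above it. The list had a median of -1.94 at day 7, when all 13 were called lower (10.2% of all genes), and of -1.19 at day 14. For Lyz1 the KO effects at days 7 and 2 differed by -2.17 (adjusted p = 0.0255), and for Itln1, a secreted lectin of the same cells, by -2.61 (adjusted p = 0.0157, edgeR).

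Stem cell and proliferation genes had list medians near 0 at day 2. The 20 stem cell markers had a median of 0.08, against -0.74 at day 7. At day 2, 3 of them were fully separated with higher levels (4.3% of all genes) and 1 with lower levels (3.86%). Lgr5, the Wnt-driven stem cell receptor, had 34.1, 28.2 and 32.4 CPM in KO and 36.4, 32.1 and 29.4 CPM in WT (log2 fold change -0.05, 95% confidence interval -0.64 to 0.55). Its KO effects at days 7 and 2 differed by -1.54 (adjusted p = 0.0392, edgeR). Nkd1, a feedback inhibitor of Wnt signalling, had 3.59, 3.59 and 3.54 CPM in KO and 2.34, 2.36 and 2.64 CPM in WT at day 2 (0.55, unadjusted p = 0.05, edgeR) and was called lower at day 7 (-1.38). The 35 proliferation genes had a median of 0.02, with 0 past an unadjusted p of 0.05, and Mki67 had 599, 657 and 530 CPM in KO and 553, 648 and 528 CPM in WT. The tuft cell markers (13 tested, median -0.07), enterocyte markers (21 tested, median -0.18) and markers of regenerating epithelium (13 tested, median -0.04) each had 0 genes past an unadjusted p of 0.05.

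**Figure D5:**
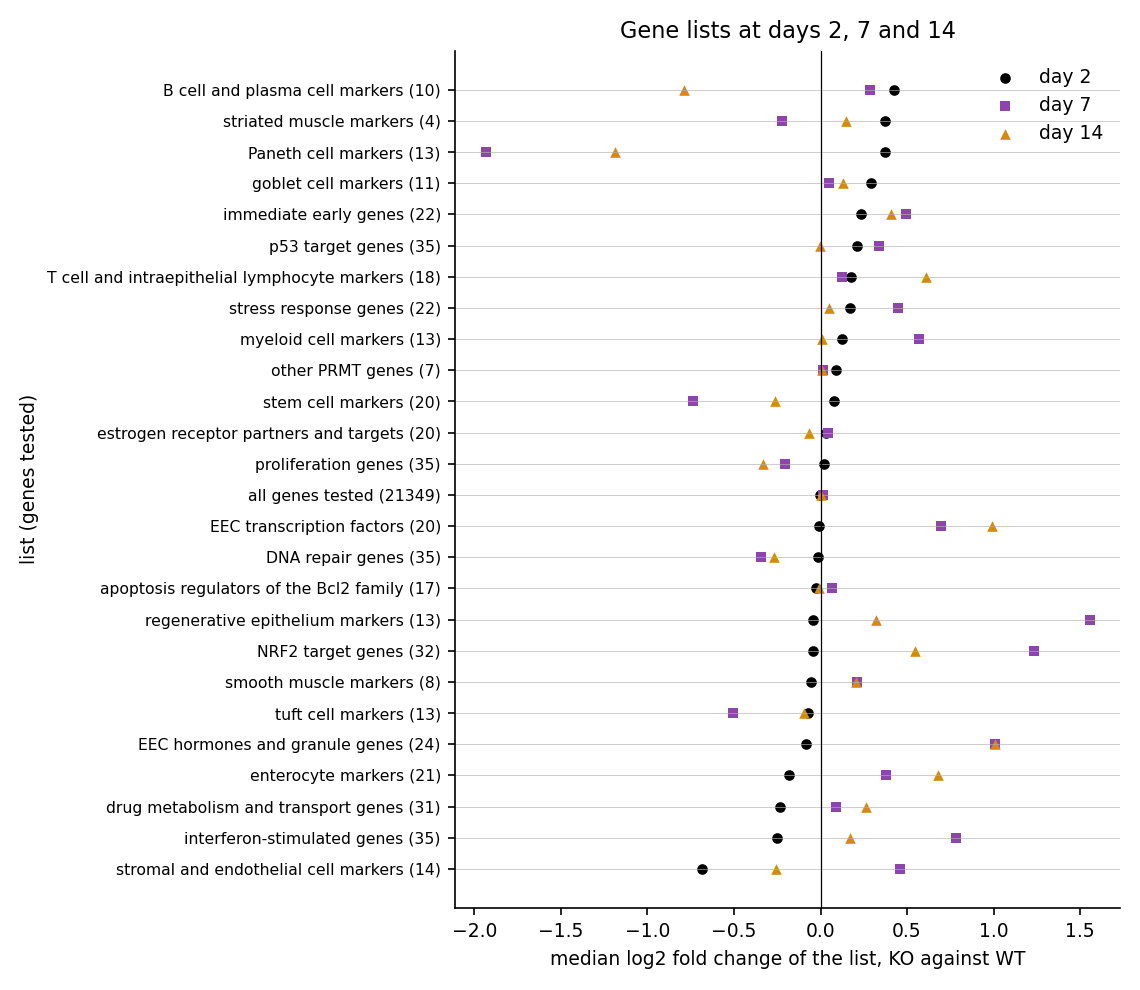
Median log2 fold change of KO against WT (x axis) of each gene list (y axis, number of genes tested in brackets) at days 2, 7 and 14. At day 2 the medians of the 25 lists lie between -0.69 and 0.43, whereas at day 7 they reach from -1.94 for Paneth cell markers to 1.56 for markers of regenerating epithelium.

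Interferon-stimulated genes had a slightly lower median in KO at day 2 (-0.25, 35 tested, 2 above 0), but this rested on 1 library: without WT 1 the median was 0.073. With an unadjusted p under 0.05, 3 genes were lower (Irgm1, Igtp and Gbp3, 8.57% of the list, against 1.37% of all genes) and 0 were called by edgeR's test. Without KO 1 or without KO 3 this count was 0, and it was 5 both with the day 2 libraries alone and with the replicate block. Full separation was seen for 6 genes of the list with lower levels (3.86% of all genes) and 0 with higher levels (4.3%). Irgm1 lies in a cluster of immunity-related GTPase genes, which defend cells against intracellular pathogens. In the 2 Mb window of chromosome 11 that holds it, 7 of 28 genes tested had an unadjusted p under 0.05, 6 of them lower in KO. Irgm1 had 36.6, 38.7 and 31.0 CPM in KO and 44.1, 45.1 and 50.2 CPM in WT (-0.39, unadjusted p = 0.0356, edgeR). Ifi47 had 21.4, 17.5 and 17.9 CPM in KO and 28.2, 24.6 and 30.3 CPM in WT (-0.55, unadjusted p = 0.0126, edgeR), and Tgtp2 had 2.13, 2.40 and 1.34 CPM against 2.46, 3.16 and 5.68 CPM. Both were separated, narrowly for Tgtp2. At day 7 the list median was 0.78 with 18 members called higher (7.11% of all genes), and the KO effects at days 7 and 2 differed by 0.93 for Irgm1 (adjusted p = 0.0374) and by 1.36 for Ifi47 (adjusted p = 0.0101, edgeR).

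Stress and detoxification genes gave few differences at day 2. Of 22 immediate early genes tested, Egr1, a transcription factor of the early growth response, was the one with an unadjusted p under 0.05, with 5.86, 3.99 and 7.77 CPM in KO and 1.93, 2.36 and 4.87 CPM in WT. The groups overlapped (0.94, unadjusted p = 0.0191, edgeR), and the list median was 0.24 with 20 values above 0. Of 22 stress response genes, Sesn2 alone had one, and the median was 0.17. The 32 NRF2 targets, genes of antioxidant defence, had a median of -0.04 at day 2 against 1.23 at day 7 and 0.54 at day 14. Within them Ephx1, an epoxide hydrolase, had 17.9, 21.3 and 32.6 CPM in KO and 12.9, 9.83 and 18.2 CPM in WT (0.81, unadjusted p = 0.0152, edgeR). Gclm, a subunit of the enzyme that limits glutathione synthesis, had 60.4, 57.6 and 70.9 CPM in KO and 75.8, 58.6 and 88.1 CPM in WT, and its KO effects at days 7 and 2 differed by 1.26 (adjusted p = 0.0198, edgeR). The 31 drug metabolism and transport genes had a median of -0.24 with 2 values above 0 and 0 genes past an unadjusted p of 0.05.

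A set of near-identical transcripts at the start of chromosome 9 was higher in the same KO libraries. Of 8 genes tested between 2 and 4 Mb, 6 had an unadjusted p under 0.05, each higher in KO, and 0 were called. The 6 transcripts are 94.9% to 97.4% identical to each other, and they do not count as separate observations. Read pairs that align to several of them were counted for none. Gm11168 had 2.80, 2.45 and 0.690 CPM in KO and 0.492, 0.311 and 0.297 CPM in WT (2.39, unadjusted p = 0.00355, edgeR). KO 1 and KO 2 were well above WT and KO 3 just above it, and in the other 5 transcripts KO 3 lay within the WT range. Gm10801, a related transcript of chromosome 2, had 7.72, 9.70 and 2.20 CPM in KO and 1.72, 2.54 and 1.37 CPM in WT. At day 7 Gm11168 was called at 3.14 and Gm10801 at 3.62, and at day 14 they were at 0.47 and 0.13, not called.

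Markers of cells without CreERT2 varied between libraries. Over the 14 stromal and endothelial markers tested, the median log2 fold change was -0.69, or -1.59 without KO 3, and 0 had an unadjusted p under 0.05. Col3a1, a fibrillar collagen, had 4.79, 9.98 and 37.0 CPM in KO and 42.2, 20.995 and 45.6 CPM in WT, with KO 3 inside the WT range. Of 10 B cell and plasma cell markers, 4 were fully separated with higher levels in KO (4.3% of all genes), 0 had an unadjusted p under 0.05 and the median was 0.43. Cd79b, a chain of the B cell receptor, had 3.39, 3.02 and 3.84 CPM in KO and 2.09, 2.22 and 1.97 CPM in WT, so that each KO library was above all WT libraries. The 13 myeloid markers tested had a median of 0.12, with 0 past an unadjusted p of 0.05. The part of these cells in the day 2 differences was not tested.

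The day 2 differences below the adjusted threshold were followed into the later days, whose mice they did not come from. Of the 288 genes that were separated with an unadjusted p under 0.05 and higher in KO at day 2 (1.35% of those tested), 62.8% had the same sign at day 7, against 51.6% of all genes, and 44 were called in that direction (15.3%, against 7.11%). At day 14, 66.3% had the same sign (50.2% of all genes) and 22 were called (7.64%, against 3.23%). Without the genes of the chromosome 6 stretch, 273 remained, with 61.2% of the same sign at day 7 and 65.2% at day 14. Of the 214 genes that were lower (1% of those tested), 64.5% had the same sign at day 7 (48.4% of all genes) and 62 were called (29.0%, against 10.2%), and at day 14 these were 65.9% (49.8%) and 32 genes (14.95%, against 4.69%). Calls in the opposite direction were made for 13 of the 288 genes at day 7 (10.2% of all genes) and 4 at day 14 (4.69%). For the 214 genes these were 13 (7.11%) and 6 (3.23%). Full separation in the same direction on all 3 days was seen for 85 genes with higher (0.398%) and 172 genes with lower levels (0.806%).

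The KO effect itself differed between day 2 and the later days for a larger number of genes. It differed between days 7 and 2 for 934 genes (4.37%), 285 with a higher (1.33%) and 649 with a lower effect (3.04%) at day 7, and between days 14 and 2 for 223 genes (1.04%), 74 higher (0.347%) and 149 lower (0.698%) (quasi-likelihood test of edgeR, Benjamini-Hochberg adjusted p under 0.05). These counts fell to 500 and 111 without WT 1, the first to 556 without KO 1 and the second to 143 without KO 3. Btbd2, a BTB domain protein gene, had the smallest p in both tests. It had 20.04, 20.4 and 20.8 CPM in KO and 19.6, 20.4 and 23.1 CPM in WT at day 2 (log2 fold change -0.04, 95% confidence interval -0.37 to 0.28), and was at -2.70 at day 7 and -2.48 at day 14. Hlcs, the ligase that attaches biotin to carboxylases, had 10.1, 11.9 and 11.3 CPM in KO and 12.5, 12.3 and 13.04 CPM in WT. All KO libraries were lower at day 2 (-0.18, 95% confidence interval -0.48 to 0.11), and the difference was -2.12 at day 7 and -1.91 at day 14. Vgf, a granule peptide of neuroendocrine cells, had at most 0.328 CPM in each day 2 library and was called higher at day 7 (2.01) and day 14 (2.4998).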

How the data were processed

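Total RNA depleted of ribosomal RNA from small intestinal crypts was sequenced in pairs of 100-base reads. The authors deposited raw counts per gene, made with STAR 2.7.3 and featureCounts 1.6.4 on mm10 without strand. A pair that overlapped more than 1 gene was added to each, and a pair with several alignments to none. The table names GENCODE release 23, the methods release 26. All 18 columns were used and 0 were left over. WT mice were littermates of KO mice, but the sources used here do not say which mice shared a litter, and p-values measure the spread between mice.

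The study used male and female mice, with sex matched between KO and WT. The library titles do not give the sex of a mouse, and sex was not in the model. The 20 genes that the study listed as sex-dependent were left out. Counts were normalized with TMM and filtered with filterByExpr of edgeR 4.0.16 (limma 3.58.1, R 4.3.3), and 1 model with a mean per group held all 18 libraries. Tests were quasi-likelihood tests of edgeR, Benjamini-Hochberg adjusted over 21349 genes and a threshold of 0.05. A pair of KO and WT groups was fully separated where all 3 KO libraries lay on one side of all WT libraries. Differences of KO effects are contrasts in this model. The model was tested on simulated data.

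Genes named are those called at day 2, the 12 that the study picked on these libraries, the next 10 in each direction, fixed genes, the leading member of each list in each direction, the leading genes of the densest window and the first 5 in each direction between days 7 and 2. Further genes and the chromosome 6 stretch were chosen after their values were seen. The comparison, the 25 lists and the tests were chosen with earlier results of these data known, and lists were not tested. In the stress response list 1 symbol matched more than 1 gene. Alternatives were DESeq2 1.42.0, its size factors, other filters, other genes left out, a replicate block, only the day 2 libraries and each day 2 library left out. RefSeq promoters (GRCm38.p6) and GENCODE M21 transcripts were read with Biopython 1.88 (Python 3.11.15).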

Additional observations from a re-analysis of the deposited data

Results flagged for a closer look

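The KO effect of 19 of the 76 named genes differed between days 7 and 2 (4.37% of all genes), and that of 8 between days 14 and 2 (1.04% of all genes) (quasi-likelihood test of the difference in edgeR, Benjamini-Hochberg adjusted p under 0.05). The named genes include the first 5 in each direction by the difference between days 7 and 2, so that the choice fixes part of these counts. Each value below is the log2 KO effect of the later day minus that of day 2, in 3 libraries per group. Of 13 Paneth cell markers, 6 had a lower effect at day 7 and 0 a higher one, and of 11 goblet cell markers these were 2 and 0 (3.04% and 1.33% of all genes). The values were -2.61 for Itln1 and -2.17 for Lyz1 of Paneth cells and -1.42 for Spink4 of goblet cells. The stem cell receptor gene Lgr5 had -1.54 and the Wnt inhibitor gene Nkd1 -1.93. Further genes with a lower effect at day 7 were Btbd2 (-2.66), Hlcs (-1.94), Thbs1 (-1.57) and the EEC transcription factor Mnx1 (-1.41), which had 2.66, 3.99 and 2.67 CPM in KO and 2.09, 2.54 and 1.97 CPM in WT at day 2.

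Of 24 EEC hormone and granule genes, 12 had a higher effect at day 7 and 0 a lower one (1.33% and 3.04% of all genes). Among 20 EEC transcription factors, 1 had a higher and 2 a lower effect, which are few genes in either direction. The values were 1.01 for Chga, 1.72 for the factor Neurod1, 2.00 for Tph1, 2.00 for the hormone gene Pyy and 2.72 for the granule peptide gene Vgf. Of 35 interferon-stimulated genes, 8 had a higher effect and 0 a lower one, with 0.93 for Irgm1, 1.36 for Ifi47 and 3.58 for Igtp. Of 32 NRF2 targets, these were 18 and 0 (1.33% and 3.04% of all genes), with 1.26 for the antioxidant gene Gclm. The transcript 5033403H07Rik had 2.28. Igtp had 19.9, 23.1 and 14.6 CPM in KO and 30.9, 28.2 and 74.8 CPM in WT at day 2, with WT 3 far above the other WT libraries.

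At day 14 the effect was higher than at day 2 by 1.76 for Chga, 1.80 for Neurod1, 2.34 for Tph1, 3.21 for Vgf and 2.85 for 5033403H07Rik. It was lower by -2.44 for Btbd2, -1.73 for Hlcs and -1.60 for the p53 target Psrc1, whose log2 fold change was 0.58 at day 2 and -1.02 at day 14.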

How the results depend on the processing

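At day 2, DESeq2's Wald test called 13 genes (12 higher), a fit without a filter on low counts 16 (15 higher), a mean count of at least 50 left 2 (1 higher, Gm13394, and Prmt1), and the 6 day 2 libraries alone gave 3 (3 higher, 0 lower, Prmt1 at -0.89). Under the mean count of 50, the window of Gm44215 held 0 genes with an unadjusted p under 0.05, and 2 of the genes called at day 2 were called at day 7 and 2 at day 14. Esr1, Gm44215, Gm45063, Phlda3 and Acta1 did not pass that filter, so that they were absent from the fit and could not be called on any day. Clec2j, Klrb1, Klri1 and Gm44216 of the window were absent too. The cause of the other shifts was not tested. Esr1, Gm13394 and Gm44215 were called in each fit that left out 1 library, and these fits called 3 to 4 genes, 3 to 4 of them higher and 0 to 1 lower. Cav1, with 0.266, 0.513 and 4.57 CPM in KO and 4.14, 3.74 and 6.76 CPM in WT, was called only without KO 3. In the same fits Prmt1 ranged from -0.95 to -0.82, genes whose KO effect differed between days 7 and 2 from 500 (without WT 1) to 811, and between days 14 and 2 from 111 (without WT 1) to 216. DESeq2 gave 1402 and 509 such genes and the fit without a filter 433 for days 14 and 2. Medians of lists ranged from -0.40 to 0.073 for interferon-stimulated genes (0.073 without WT 1), from -0.14 to 0.097 for EEC transcription factors (0.097 without KO 1, -0.14 without KO 2) and from 0.17 to 0.39 for goblet cell markers. Log2 fold changes of genes that were not called changed sign in some of these fits, with a range from -0.056 to 0.46 for Cdkn1a, -0.13 to 0.20 for Chga (also -0.053 and -0.11), -0.31 to 0.014 for Tph1, -0.095 to 0.82 for Pyy, -0.12 to 0.040 for Lgr5 (also 0.030), -0.028 to 0.14 for Mki67 (also -0.023) and -0.090 to 0.022 for Btbd2. Size factors of DESeq2, the sex-dependent genes kept and the 20 most abundant genes left out each gave 7 genes, all shared with the main result. Replicate numbers did not pair the libraries: same-numbered KO and WT libraries had correlations of deviations of 0.05, 0.12 and 0.54, and only pair 3 correlated best with its own number. With the replicate block, 8 genes were called at day 2, 6 of them shared, without Gm45063 (adjusted p = 0.0798, edgeR) and with Clec2j and Duoxa2, and the KO effects differed between days 14 and 2 for 353 genes. Depth limits the genes near 1 CPM, such as Gm45063 with 15 to 18 counts per KO library.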
